A study of Rattus norvegicus with 16 samples.

Results

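Whole-kidney bulk RNA-Seq was compared between DOCA-salt rats and sham controls, a comparison that comprised 7 of the 16 libraries of the series. The members were 4 control libraries and DOCA replicates 1 to 3, and 14061 of the 32623 gene IDs in the deposited count table had a count above 4 in at least 3 of these 7 libraries and were tested. DOCA replicate 4, which the study set aside as an outlier, entered no test and is given beside the others as a check.

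All animals were Sprague-Dawley rats, the tissue was adult kidney, and the age label read 6 weeks in both groups. Per the study's methods, controls had a sham operation and received neither DOCA nor salt. DOCA rats lost a kidney by surgery, then received repeated injections of deoxycorticosterone acetate (DOCA) in oil, salt in the drinking water and the drug vehicle by gavage. The comparison therefore covers the loss of a kidney, DOCA, salt and vehicle together, and their parts cannot be told apart. The labels do not state that libraries of a group came from separate animals, so p-values measure the spread between libraries. That spread was estimated over 14 libraries, which include those of DOCA-salt rats treated with finerenone or spironolactone.

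Deoxycorticosterone is a mineralocorticoid that acts on the same receptor as aldosterone. In the distal nephron this receptor raises sodium uptake through the epithelial sodium channel, and mineralocorticoid excess with salt produces hypertension and kidney damage. A damaged tubule is known to switch on injury proteins that healthy tubules hardly make, while fibroblasts deposit matrix and immune cells enter the tissue. In whole-kidney RNA, a change in the number of cells of a type and a change of RNA per cell cannot be told apart.

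Control libraries held 7379620 ± 326461 (SD, n = 4) counts and DOCA libraries 7589296 ± 354900 (SD, n = 3), so depth was alike. A floor of 3 counts corresponded to between 0.332 and 0.478 CPM (counts per 1000000 after TMM scaling, a correction for library composition). On log2 CPM the typical distance was 0.487 to 0.587 between controls, 0.418 to 0.434 between DOCA replicates 1 to 3 and 0.756 to 0.873 between the groups. DOCA replicate 4 lay 0.588 to 0.670 from the other DOCA libraries and 0.983 to 1.09 from the controls. Each library code opens with a number that occurs in 1 group only, so the source of that number and the group cannot be told apart.

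The deposited tables hold Ensembl IDs without gene names. A name was given to 1999 IDs, all of them tested, by matching their deposited TPM values to a key from the study. That key lists genes the study selected in these same libraries and runs from the largest rise downward. The copy of the key used here was cut short at 1997 rows, so its end is not the end of the study's list. It reaches 1547 of 2213 genes that rose (69.9%) but 115 of 1655 genes that fell (6.95%), and no named gene had a log2 fold change below -0.59. Of the 1999 named IDs 77.4% rose, and DOCA lay above all controls for 83.6%, which is the background for any named list. Counts of named members below are therefore weighted toward rises by construction, are no independent evidence of direction, and say nothing of members without a name.

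Promoters are shown first for 2 groups of genes that rose. The groups and the letters searched were chosen with the changes of these genes known and the promoters searched, so the shares below are descriptions. Promoters are RefSeq windows on the rat build GRCr8, from 250 bases before to 50 bases after a gene's start, read 5′ to 3′ on the gene's strand. Capitals mark matches on either strand. In the first pair they mark the E2F letters TTTCCCGC, TTTCGCGC, TTTGCCGC or TTTGGCGC, which E2F cell cycle factors can bind.
Cdk1, chr20:19265043-19265342 (+): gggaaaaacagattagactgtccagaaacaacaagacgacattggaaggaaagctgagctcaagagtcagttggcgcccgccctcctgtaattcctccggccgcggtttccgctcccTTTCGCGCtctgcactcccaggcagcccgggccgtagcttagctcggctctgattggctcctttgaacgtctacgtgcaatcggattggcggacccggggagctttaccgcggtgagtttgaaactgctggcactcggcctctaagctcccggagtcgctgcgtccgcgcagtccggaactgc
Mcm5, chr19:13488563-13488862 (+): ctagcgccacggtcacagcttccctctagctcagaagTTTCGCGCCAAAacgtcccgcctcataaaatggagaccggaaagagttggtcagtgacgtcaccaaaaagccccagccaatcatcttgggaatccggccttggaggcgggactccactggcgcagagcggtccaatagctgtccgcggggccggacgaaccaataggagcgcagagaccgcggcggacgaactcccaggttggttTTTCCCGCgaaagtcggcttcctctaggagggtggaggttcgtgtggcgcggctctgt

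Cdk1 encodes the kinase that drives entry into mitosis, and Mcm5 a subunit of the helicase that opens DNA for replication. Of the 20 cell cycle members that rose, 15 had a promoter in the table and 7 of those held the E2F letters (46.7%), beside 716 of all 33469 promoters (2.14%). They were Cdk1, Mcm2, Mcm3, Mcm5, Mcm6, Mcm7 and Tyms. Of the 1330 promoters that belong to named genes that rose, 57 (4.29%) held these letters. Elsewhere in the lists searched they stood in 1 promoter, that of the antigen presentation gene Psmb9.

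In the second pair the capitals mark GAAA, any 2 bases and GAAA, the core of the interferon-stimulated response element, in the promoters of 2 immunoproteasome subunits that cut proteins into peptides for antigen presentation.
Psmb10, chr19:50743243-50743542 (-): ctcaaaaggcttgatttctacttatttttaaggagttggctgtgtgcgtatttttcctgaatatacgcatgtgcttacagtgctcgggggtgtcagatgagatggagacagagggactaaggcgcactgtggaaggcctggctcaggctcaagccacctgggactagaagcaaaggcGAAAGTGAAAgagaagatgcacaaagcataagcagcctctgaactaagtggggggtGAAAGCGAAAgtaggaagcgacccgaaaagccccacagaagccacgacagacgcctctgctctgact
Psmb8, chr20:4656982-4657281 (-): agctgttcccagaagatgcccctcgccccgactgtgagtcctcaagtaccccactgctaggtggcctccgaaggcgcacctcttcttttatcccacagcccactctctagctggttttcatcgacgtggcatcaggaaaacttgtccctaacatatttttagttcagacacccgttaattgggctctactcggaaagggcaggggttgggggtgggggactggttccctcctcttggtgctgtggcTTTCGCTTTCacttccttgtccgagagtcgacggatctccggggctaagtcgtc

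Of the 12 antigen presentation members that rose, 11 had a promoter and 6 of those held these letters (54.5%), beside 1312 of all promoters (3.92%). They were Ctss, Psmb10, Psmb8, Tap1, Tap2 and Tapbp. None of the 15 cell cycle promoters held it, and among 11 promoters of chemokine, cytokine and adhesion genes it stood in Cxcl10 and Vcam1. The AP-1 letters TGANTCA stood in 4 of those 11 promoters (36.4%), in 7.33% of all promoters and in 7.22% of those of named genes that rose. They stood in 2 of 17 tubular injury and 1 of 17 matrix promoters, and in 0 of 6 in the AP-1 and immediate early list, 0 of 15 cell cycle, 0 of 11 antigen presentation and 0 of 10 complement promoters. AGAACA, any 3 bases and TGT, part of a steroid hormone response element, stood in 0.415% of all promoters and in 1 promoter of the named genes that rose. These windows say nothing of more distant sequence.

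The DOCA-salt kidney differed widely from control. A gene was called where edgeR's quasi-likelihood test gave a Benjamini-Hochberg adjusted p under 0.05 and the log2 fold change reached 0.5 in size. That rule called 3868 genes (27.5%), with 2213 rises (15.7%) and 1655 falls (11.8%). The rises were larger than the falls. The median log2 fold change was 1.15 among genes that rose and -0.75 among genes that fell. A 2-fold change or more was seen for 1309 rises and 433 falls, an 8-fold change or more for 135 rises and 21 falls. CPM of the 3 DOCA libraries lay above all 4 controls for 3123 genes (22.2%) and below all of them for 3071 (21.8%).

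The plot of fold change against level shows that rises and falls differed in abundance. By mean CPM the genes were split into 3 classes of 4687. In the lowest class, below 9.07 CPM, 1122 genes rose and 206 fell. In the highest class, above 37.4 CPM, 309 rose and 1029 fell after TMM scaling, whereas 900 rose and 323 fell with library size alone. The excess of rises in the lowest class held on both scales, but the excess of falls in the highest class turned to an excess of rises without TMM.

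**Figure D1:**
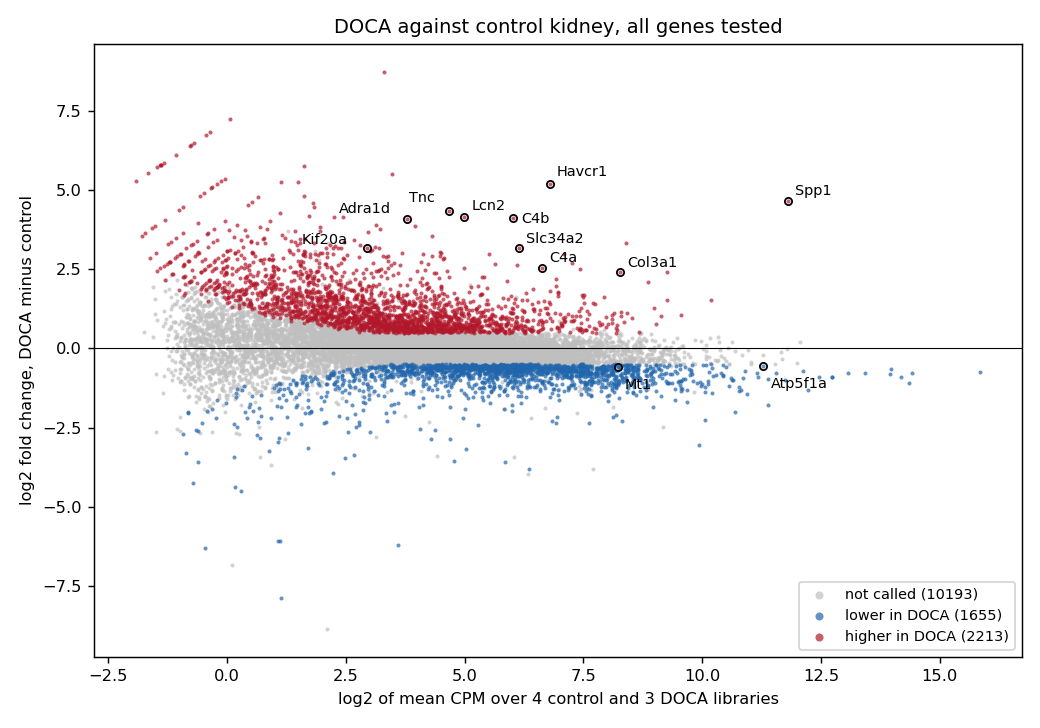
Log2 fold change of DOCA minus control (vertical) against the log2 of mean CPM over 7 libraries (horizontal) for 14061 genes, with 2213 genes called higher in red, 1655 called lower in blue and the others in grey. Circles mark named genes, among which Spp1 and Havcr1 lie highest at their level; red points are denser at low levels and blue points at high levels.

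The most abundant transcripts held a smaller share of the counts in DOCA. Of the 50 most abundant genes of control kidney, 35 fell, 0 rose and 15 were not called, with a median log2 fold change of -0.78. Of all genes tested 11.8% fell, and of the highest class 1029 of 4687. These 50 genes were picked by their control level, which also enters the fold change, so the choice leans toward falls. With library size alone 20 of them fell and 1 rose, and on log2(TPM + 1) 8 fell and 1 rose. The 50 most abundant genes of a control library held 30.6% ± 0.992 (SD, n = 4) of its counts, those of a DOCA library 24.1% ± 1.61 (SD, n = 3), with 24.5% in DOCA replicate 4. The exact 2-sided permutation p was 0.0286, the smallest that 35 splits allow. DOCA and control shared 38 of their 50 most abundant genes. Only 3 of the 12 that entered had a name, and they were named after their values were seen: Spp1, the lysosomal protease gene Ctsd and the chaperone gene Clu. Spp1 moved from rank 518 in control to rank 7 in DOCA, Clu from 817 to 47 and Ctsd from 170 to 26.

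The scale bears on every fold change, as the histogram on 3 scales shows. Over all genes tested the log2 fold change had a median of 0.02 after TMM, 0.11 with upper quartile scaling, 0.36 with library size alone, 0.43 on log2(TPM + 1) and 0.52 on log2(TPM + 0.1). Of the genes called, 57.2% were higher after TMM, against 68.7% with the upper quartile, 89.9% with library size alone and 94.7% on log2(TPM + 1). All 99 genes and IDs named by rule kept their sign on each of these scales. Il34, Pcna, Dusp1, Cdh5, Sod3, Hk1 and Hsd11b2 were not called after TMM but were called on each of the other scales.

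**Figure D2:**
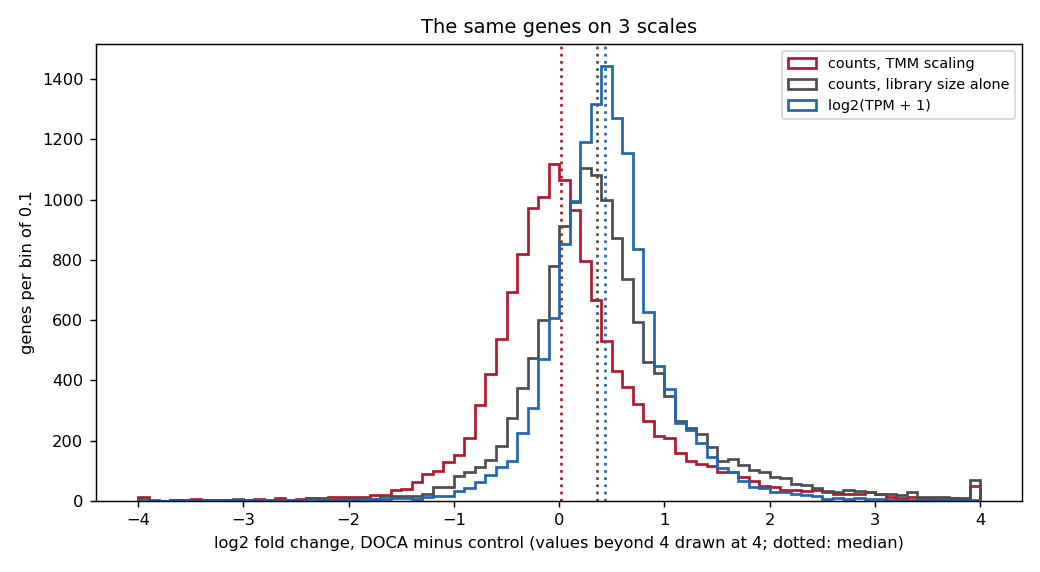
Number of genes per bin of 0.1 (vertical) by log2 fold change of DOCA minus control (horizontal) for the 14061 genes on 3 scales, with dotted lines at the medians. The whole distribution lies to the right with library size alone (median 0.36) and on log2(TPM + 1) (median 0.43) compared with TMM (median 0.02).

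Tubular injury genes included Havcr1 and Spp1, the 2 leading rises among genes named by rule. Of 25 list members 20 had a name, of which 19 rose and 0 fell, beside 77.4% of named genes and 15.7% of all genes tested that rose. Their median log2 fold change was 1.69, compared with 0.02 for all genes and 0.80 for all named genes. Havcr1 encodes kidney injury molecule 1, a receptor that damaged proximal tubules display. Its CPM was 12.1, 1.25, 1.39 and 12.7 in controls 1 to 4 and 282, 246 and 221 in DOCA replicates 1 to 3. The groups did not overlap, although controls 1 and 4 lay far above controls 2 and 3. The log2 fold change was 5.20 ± 0.67 (SE), a 36.7-fold rise with an edgeR adjusted p of 0.000167.

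Spp1, which encodes the secreted matrix protein osteopontin, had 387, 182, 206 and 483 CPM in controls and 7217, 8499 and 8081 CPM in DOCA. It took 0.818% to 0.939% of all counts in DOCA replicates 1 to 3, and 0.0162% to 0.0429% in controls. The rise was 25.2-fold (log2 fold change 4.66 ± 0.48, SE, edgeR adjusted p of 2.73e-05). Controls 1 and 4 were again the higher controls.

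Lcn2 encodes neutrophil gelatinase-associated lipocalin, an iron-carrier binding protein and injury marker. It had 5.42, 2.50, 1.39 and 6.37 CPM in controls and 49.6, 68.7 and 87.8 CPM in DOCA. Its log2 fold change of 4.15 ± 0.57 (SE) had an edgeR adjusted p of 0.000226. Slc34a2 encodes a sodium phosphate cotransporter of epithelia. It had 21.4, 12.16, 13.8 and 16.9 CPM in controls and 168, 146 and 117 CPM in DOCA, a log2 fold change of 3.16 ± 0.28 (SE, edgeR adjusted p of 5.65e-06). For both genes every DOCA library lay above every control.

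The other injury members that rose spanned log2 fold changes of 0.79 for Krt7 to 3.03 for Cd44, the hyaluronan receptor. Il34, a growth factor for macrophages, had 43.2 to 50.2 CPM in controls and 62.4 to 63.9 CPM in DOCA. Its groups did not overlap, but its log2 fold change of 0.46 missed the size limit (edgeR adjusted p of 0.00418), and without control replicate 2 it was 0.51 and passed.

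**Figure D3:**
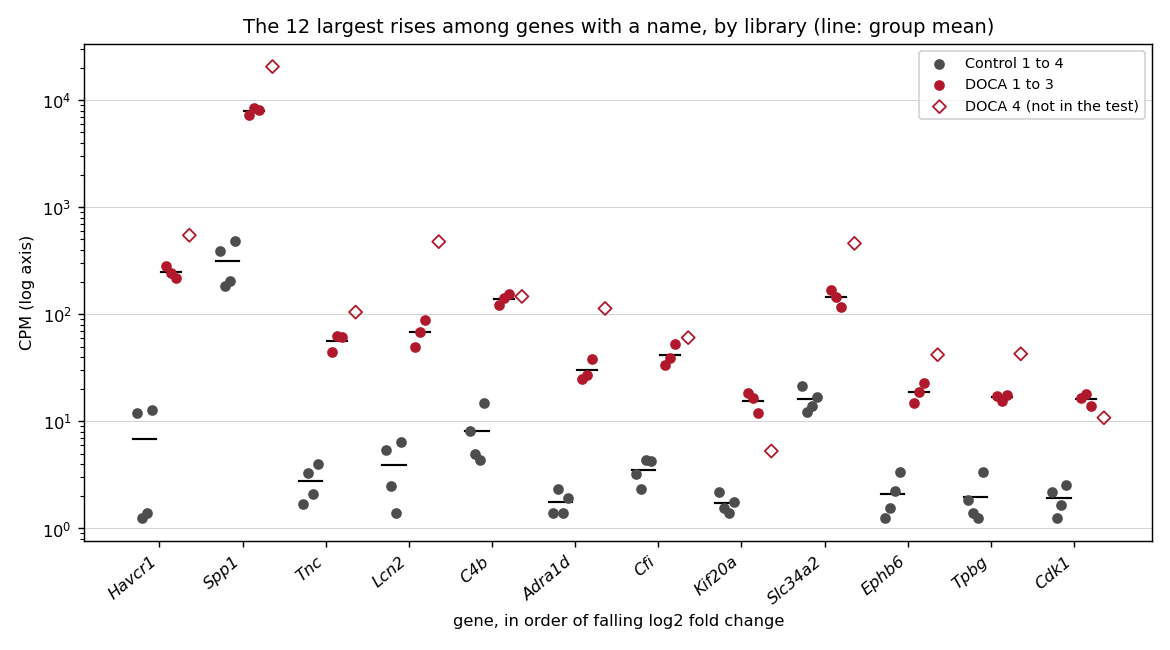
CPM (vertical, log axis) of the 12 largest rises among genes with a name in each library, with controls 1 to 4 in grey, DOCA replicates 1 to 3 in red, DOCA replicate 4 as an open diamond and group means as lines. The genes were picked among those whose groups do not overlap, so red lies above grey by choice; the diamond lies above the red points except for C4b, Kif20a and Cdk1.

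Among the remaining leading rises were 3 surface receptors or antigens outside the lists. Adra1d, an alpha-1 adrenergic receptor, had 1.39 to 2.34 CPM in controls and 25.0, 26.8 and 38.3 CPM in DOCA (log2 fold change 4.09 ± 0.35, SE, edgeR adjusted p of 8.26e-07). Ephb6, an ephrin receptor without kinase activity, had 1.24 to 3.34 CPM in controls and 14.9, 18.7 and 22.7 CPM in DOCA (log2 fold change 3.16 ± 0.38, SE, edgeR adjusted p of 1.47e-05). Tpbg, which encodes the trophoblast glycoprotein 5T4, had 1.26 to 3.34 CPM in controls and 17.3, 15.6 and 17.6 CPM in DOCA (an 8.59-fold rise, edgeR adjusted p of 2.81e-06). Each was at a few CPM in control kidney and clear of it in all DOCA libraries.

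All 32 matrix members with a name, of 43 in the list, rose. Their median log2 fold change was 1.77, and CPM did not overlap for 31 of them, Serpinh1 being the exception. Among all named genes 77.4% rose and 83.6% lay above control without overlap, against 15.7% and 22.2% of all genes tested. Tnc, which encodes the matrix glycoprotein tenascin C, led with 1.70, 3.27, 2.09 and 3.98 CPM in controls and 44.3, 62.1 and 61.0 CPM in DOCA. Its log2 fold change of 4.34 ± 0.32 (SE) had an edgeR adjusted p of 5.47e-07.

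Timp1, an inhibitor of matrix-degrading metalloproteinases, rose by 2.92 ± 0.25 on the log2 scale (SE, edgeR adjusted p of 8.47e-07). Lox, which crosslinks collagen, rose from 2.79 to 7.32 CPM in controls to 31.4 to 34.9 CPM in DOCA (log2 fold change 2.74 ± 0.22, SE, edgeR adjusted p of 2.01e-07). The protease inhibitor and the crosslinking enzyme thus rose beside the collagens themselves.

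Col1a1 and Col3a1 encode the main fibrillar collagens. Col1a1 had 46.7, 52.6, 38.2 and 92.4 CPM in controls and 324, 312 and 337 CPM in DOCA (log2 fold change 2.50 ± 0.23, SE, edgeR adjusted p of 4.45e-06). Col3a1 had 88.2, 124, 81.6 and 140 CPM in controls and 562, 513 and 647 CPM in DOCA (log2 fold change 2.41 ± 0.18, SE, edgeR adjusted p of 2.28e-07). Dcn, a small proteoglycan of fibroblasts, rose by a log2 fold change of 2.19 ± 0.17 (SE, edgeR adjusted p of 3.97e-07). These 3 genes also mark fibroblasts. Of 9 fibroblast and myofibroblast markers 7 had a name, of which 6 rose, beside 77.4% of named genes and 15.7% of all genes. The summed level of those 7 was 325 to 478 CPM in controls and 1362 to 1508 CPM in DOCA. The part of fibroblast number in the matrix rise was not tested.

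Of the TGF-beta and myofibroblast list, 14 of 26 members had a name and all 14 rose, beside 77.4% of named genes and 15.7% of all genes, with a median log2 fold change of 0.99. Ltbp2, a matrix protein related to the binders of latent TGF-beta, rose by 3.00 ± 0.32 (SE, edgeR adjusted p of 1.16e-05). The muscle genes Tagln and Des rose by 1.81 ± 0.22 (SE, edgeR adjusted p of 3.17e-05) and 1.24 ± 0.18 (SE, edgeR adjusted p of 4.75e-05) on the log2 scale. Pdgfb, a growth factor for mesenchymal cells, rose by 1.22 ± 0.16 (SE, edgeR adjusted p of 1.17e-05). Acta2, the smooth muscle actin of myofibroblasts, had 20.9 to 38.5 CPM in controls and 51.7 to 60.7 CPM in DOCA. Its call had an edgeR adjusted p of 0.0238 that rose to between 0.0539 and 0.0652 without control replicate 1, 2 or 3 or DOCA replicate 1 or 2. Tgfb2, a TGF-beta ligand named after its values were seen, was called at the limit (log2 fold change 0.51, edgeR adjusted p of 0.0495) with groups that overlapped.

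All 16 complement and acute phase members with a name, of 29, rose and did not overlap between groups, with a median log2 fold change of 1.41. The shares of named genes that did so were 77.4% and 83.6%, those of all genes 15.7% and 22.2%. Cfi, the protease that inactivates C3b and C4b, had 2.34 to 4.32 CPM in controls and 33.5, 39.1 and 52.3 CPM in DOCA (log2 fold change 3.54 ± 0.37, SE, edgeR adjusted p of 1.10e-05). C4b, a complement C4 gene, had 8.21, 4.99, 4.32 and 14.97 CPM in controls and 123, 143 and 153 CPM in DOCA (log2 fold change 4.11 ± 0.41, SE, edgeR adjusted p of 1.91e-05). C4a, its close copy, rose by 2.54 ± 0.38 (SE, edgeR adjusted p of 0.000381). Reads may be split between these copies, so their separate values are uncertain.

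Fga, which encodes the alpha chain of fibrinogen, rose from 7.02 to 14.7 CPM in controls to 63.1, 86.0 and 32.6 CPM in DOCA, where replicate 3 was the lowest (log2 fold change 2.55 ± 0.41, SE, edgeR adjusted p of 0.000535). The list thus included activating components such as C2 and C3 (log2 fold changes of 2.07 and 1.72) as well as the inhibitors Cfi and Serping1 (0.98).

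Named antigen presentation genes rose by smaller steps. Of 21 members 14 had a name, of which 12 rose, and CPM did not overlap for 8. Among all named genes 77.4% rose and 83.6% lay above control without overlap, against 15.7% and 22.2% of all genes tested. These counts do not set the list above other named genes. Ciita, the master activator of MHC class II genes, had 7.44 to 10.29 CPM in controls and 19.7 to 27.0 CPM in DOCA (log2 fold change 1.36 ± 0.18, SE, edgeR adjusted p of 1.87e-05). Psmb10 had 15.6 to 24.04 CPM in controls and 45.3 to 46.5 CPM in DOCA (log2 fold change 1.28 ± 0.16, SE, edgeR adjusted p of 9.65e-06). Psmb8 rose alike, by 1.23 ± 0.16 (SE, edgeR adjusted p of 1.10e-05). These 3 genes stayed clear of the controls in each DOCA library.

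Of the 6 MHC genes of the list with a name 4 rose. RT1-Da, RT1-Ba and RT1-Bb, all of class II and named after their values were seen, rose by 0.85, 0.68 and 0.75 on the log2 scale with groups that overlapped (edgeR adjusted p of 0.00724, 0.00980 and 0.0247). RT1-DMa, which helps load class II molecules, rose by 1.40 ± 0.40 (SE, edgeR adjusted p of 0.0170), a call lost without DOCA replicate 1 (0.0522). RT1-A1, a class I gene, had 96.6, 106, 87.9 and 216 CPM in controls and 139, 164 and 282 CPM in DOCA. RT1-Db1, a class II gene, had 177, 171, 143 and 319 CPM in controls and 277, 230 and 401 CPM in DOCA. Control 4 overlapped with DOCA for both, and neither was called, with edgeR adjusted p of 0.156 and 0.139. Without control replicate 4 both passed, at 0.00423 and 0.00883. RT1 genes have near-identical relatives, so their counts are uncertain.

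Chemokine, cytokine and adhesion genes comprised 15 named members of 35, of which 14 rose, with a median log2 fold change of 1.29 and no overlap for any of the 15. Of named genes 77.4% rose and 83.6% lay above control without overlap, of all genes 15.7% and 22.2%. Cxcl10, an interferon-induced attractant of T cells, had 6.04, 4.52, 5.72 and 5.57 CPM in controls and 31.9, 33.8 and 24.4 CPM in DOCA (log2 fold change 2.45 ± 0.17, SE, edgeR adjusted p of 5.12e-08). Tnfaip3, a brake on NF-kappaB signaling, rose by 2.00 ± 0.24 (SE, edgeR adjusted p of 5.67e-06). Nfkbiz, a nuclear regulator of the same pathway, rose by 1.95 ± 0.25 (SE, edgeR adjusted p of 1.26e-05). Cx3cr1, the fractalkine receptor of monocytes, rose by 1.87 ± 0.33 (SE, edgeR adjusted p of 0.000235), with DOCA replicate 3 at 5.76 CPM beside 12.34 and 11.97 CPM in the others.

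Markers of immune cells moved with these genes. Of 14 macrophage and monocyte markers 10 had a name and all 10 rose, without overlap. The shares of named genes that did so were 77.4% and 83.6%, those of all genes 15.7% and 22.2%. The summed level of these 10 markers was 337 to 517 CPM in controls and 777 to 1062 CPM in DOCA. Csf1r, the receptor on which macrophages depend, had 34.7, 41.0, 35.3 and 41.7 CPM in controls and 99.6, 93.9 and 114 CPM in DOCA (log2 fold change 1.43 ± 0.11, SE, edgeR adjusted p of 1.54e-07). Mrc1, a mannose receptor, rose 6.50-fold (edgeR adjusted p of 0.000141) to 15.1, 14.2 and 37.1 CPM. Cd14 rose by 1.59 ± 0.24 (SE, edgeR adjusted p of 6.86e-05) and the complement gene C1qb by 1.41 ± 0.19 (SE, edgeR adjusted p of 3.47e-05).

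In the T and NK cell list 3 of 13 members had a name and all 3 rose, beside 77.4% of named genes and 15.7% of all genes. Among them, Ptprc and Cd4 are not particular to T and NK cells. Ptprc, which encodes the leukocyte antigen CD45, had 10.9 to 16.2 CPM in controls and 38.6 to 42.1 CPM in DOCA (log2 fold change 1.65 ± 0.16, SE, edgeR adjusted p of 1.24e-06). Cd4 rose by 1.22 ± 0.16 (SE, edgeR adjusted p of 1.02e-05), and rat macrophages also express it. Cd2, at 1.56 to 4.30 CPM in the 7 libraries, rose by 0.99 ± 0.36 (SE, edgeR adjusted p of 0.0393), a call lost without any 1 of controls 1 to 3 or DOCA replicates 1 to 3 (0.0537 to 0.107). The part of immune cell number in the complement, chemokine and antigen presentation rises was not tested.

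Cell cycle genes rose from low levels. Of 41 members 21 had a name and 20 rose, beside 77.4% of named genes and 15.7% of all genes. The median log2 fold change of the 21 was 1.58. Kif20a, a motor protein of cell division, had 2.17, 1.56, 1.39 and 1.75 CPM in controls and 18.5, 16.4 and 11.96 CPM in DOCA (log2 fold change 3.17 ± 0.34, SE, edgeR adjusted p of 2.03e-06). Cdk1 had 1.25 to 2.55 CPM in controls and 16.6, 18.1 and 13.96 CPM in DOCA (log2 fold change 3.08 ± 0.28, SE, edgeR adjusted p of 4.44e-07). DOCA replicate 3 was the lowest DOCA library for both.

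Top2a, the topoisomerase of dividing cells, rose by 2.98 ± 0.25 (SE, edgeR adjusted p of 3.90e-07) and Mcm5 by 2.90 ± 0.28 (SE, edgeR adjusted p of 1.04e-06). The cell cycle inhibitor Cdkn1a rose as well, by 1.51. Pcna, a replication clamp also used in DNA repair, had 39.3 to 46.9 CPM in controls and 56.9 to 60.8 CPM in DOCA, and its log2 fold change of 0.45 (edgeR adjusted p of 0.00315) missed the size limit.

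Of the AP-1 and immediate early list, 11 of 22 members had a name. Of these 10 rose, beside 77.4% of named genes and 15.7% of all genes. Atf3, a stress-induced transcription factor, had 6.82, 3.27, 3.07 and 9.71 CPM in controls and 43.2, 41.2 and 24.5 CPM in DOCA (log2 fold change 2.67 ± 0.39, SE, edgeR adjusted p of 0.000178). Myc rose by 2.04 ± 0.23 (SE, edgeR adjusted p of 5.58e-06), and the antiproliferative gene Btg2 by 1.73 ± 0.19 (SE, edgeR adjusted p of 5.08e-06). Egr1, a factor induced within minutes of stimulation, varied most, with 2.51 to 15.1 CPM in controls and 53.7, 21.2 and 13.96 CPM in DOCA. Its groups overlapped, and its call (edgeR adjusted p of 0.0303) was lost without control replicate 1, 2 or 3 or DOCA replicate 1 (0.0724 to 0.157). Dusp1, a phosphatase that ends such signals, had 24.4 to 33.6 CPM in controls and 30.6 to 45.6 CPM in DOCA and was not called (edgeR adjusted p of 0.0323, log2 fold change 0.46), but it passed without control replicate 4 or DOCA replicate 2.

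**Figure D4:**
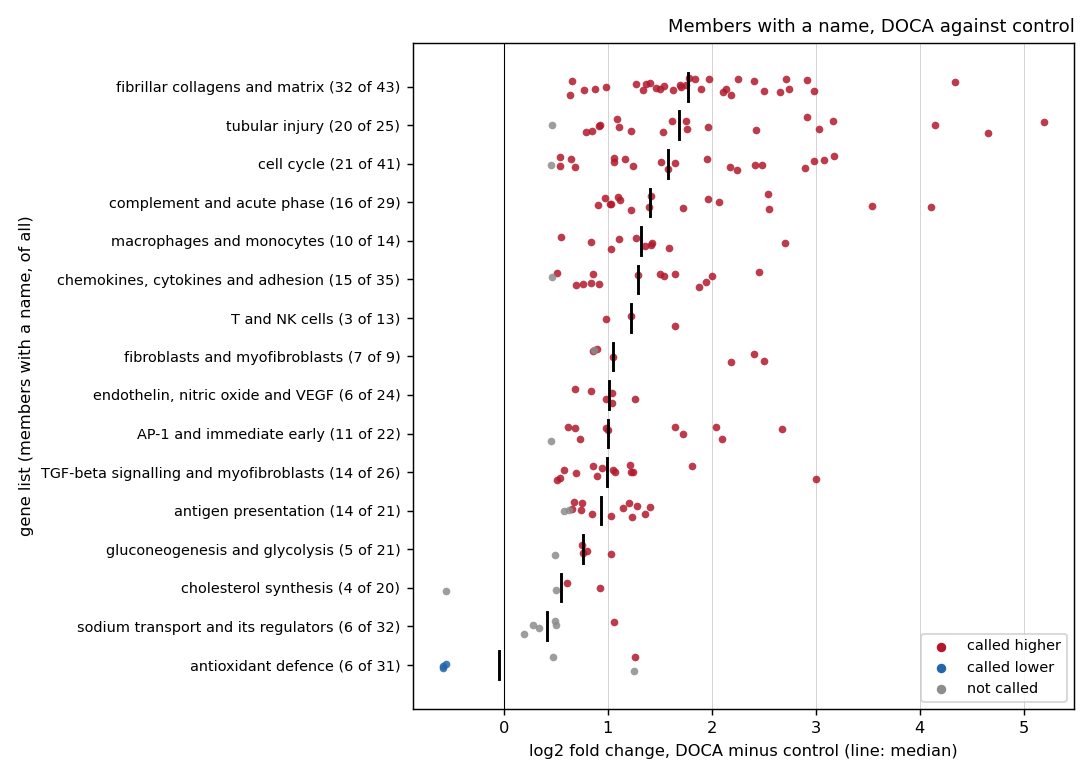
Log2 fold change of DOCA minus control (horizontal) of each named member of the lists with at least 3 such members (vertical), with called higher in red, called lower in blue, not called in grey and the median as a line. Medians run from -0.04 for antioxidant defence to 1.77 for matrix; the members shown are those the name key reaches, which favors rises.

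Most of the named sodium transport members rose by less than the size limit after TMM scaling. Of 32 members 6 had a name, and 1 was called, beside 77.4% of named genes that rose. CPM of DOCA lay above all controls for 5 of these 6, beside 83.6% of named genes. The other 26 members had no name, and larger falls lie beyond the key, so nothing is said of them. Hsd11b2, the enzyme that shields the mineralocorticoid receptor from glucocorticoids, had 334, 356, 296 and 412 CPM in controls and 469, 452 and 555 CPM in DOCA. Its log2 fold change of 0.49 ± 0.14 (SE, edgeR adjusted p of 0.00943) fell just short of the limit, and it passed without control replicate 2 or 4 or DOCA replicate 1 or 2. Scnn1b, a sodium channel subunit, had 47.8 to 55.7 CPM in controls and 57.7 to 68.5 CPM in DOCA (log2 fold change 0.28 ± 0.09, SE, edgeR adjusted p of 0.0260). Both Hsd11b2 and Scnn1b were called with library size alone and on the TPM scales. Over all alternatives their log2 fold changes reached 1.01 and 0.79. Also not called were Scnn1a (0.33) and Zeb1 (0.50), both named after their values were seen. The channel subunit Scnn1b and Hsd11b2, both of collecting duct cells, were present in every library, whereas the markers of proximal tubule, distal convoluted tubule and intercalated cells had no name and were not checked. Pik3r3, a regulatory subunit of PI3 kinase, rose by 1.06 ± 0.27 (SE, edgeR adjusted p of 0.00483), a call that ended when DOCA replicate 4 was added (0.0551).

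In the endothelin, nitric oxide and VEGF list, 6 of 24 members had a name and all 6 rose without overlap, where 77.4% of named genes rose and 83.6% lay above control, and 15.7% and 22.2% of all genes. Ednra, the endothelin receptor of smooth muscle, rose by 1.26 ± 0.29 (SE, edgeR adjusted p of 0.00240). Gucy1a1 and Gucy1b1 encode the chains of the nitric oxide receptor guanylate cyclase, and both rose by 1.04 on the log2 scale (edgeR adjusted p of 1.79e-05 and 5.10e-05). Nrp2, a VEGF coreceptor, rose by 0.99 ± 0.21 (SE, edgeR adjusted p of 0.00137). Cdh5, a cadherin of endothelium, had 23.1 to 30.7 CPM in controls and 35.7 to 38.9 CPM in DOCA and was not called (log2 fold change 0.46, edgeR adjusted p of 0.00387), but it passed without control replicate 1.

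Metabolic lists were mostly out of reach of the name key. Of 5 named glycolysis members of 21, 4 rose, where 77.4% of named genes and 15.7% of all genes rose. Pkm, a pyruvate kinase, had 187 to 225 CPM in controls and 332 to 343 CPM in DOCA (log2 fold change 0.76 ± 0.10, SE, edgeR adjusted p of 2.48e-05). Ldha, a lactate dehydrogenase subunit, rose by 0.75 ± 0.12 (SE, edgeR adjusted p of 0.000122), Pfkp by 1.03 ± 0.17 (SE, edgeR adjusted p of 0.000147) and Hk2 by 0.79 ± 0.22 (SE, edgeR adjusted p of 0.00811). Hk1 had a log2 fold change of 0.49 and was not called, though it passed without control replicate 1 or 3 or DOCA replicate 2 or 3.

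Of 20 cholesterol members 4 had a name, of which 2 rose, beside 77.4% of named genes and 15.7% of all genes. Sqle, a squalene epoxidase, rose by 0.60 ± 0.17 (SE, edgeR adjusted p of 0.00835), a call lost without DOCA replicate 1 (0.0839). The fatty acid oxidation list had 2 named members of 39, of which 1 rose, beside 77.4% of named genes and 15.7% of all genes. Acsm3, of fatty acid activation, had 128 to 238 CPM in controls and 334, 188 and 418 CPM in DOCA. Its call (edgeR adjusted p of 0.0155) was lost without DOCA replicate 1 or 3 (0.0520 and 0.0854). Pdk4, a brake on glucose oxidation, was not called (log2 fold change 0.75, edgeR adjusted p of 0.210).

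Of 6 named antioxidant members 3 fell, 1 rose and 2 were not called. Among named genes 115 of 1999 fell, and among all genes tested 11.8%. Gpx4, which reduces lipid peroxides, had 620, 522, 528 and 560 CPM in controls and 376, 369 and 390 CPM in DOCA (log2 fold change -0.56 ± 0.10, SE, edgeR adjusted p of 0.000254). Mt1, a metallothionein, had 369, 347, 273 and 407 CPM in controls and 208, 266 and 224 CPM in DOCA (log2 fold change -0.58 ± 0.15, SE, edgeR adjusted p of 0.00635). Mgst1, a membrane glutathione transferase, also fell by 0.58 (edgeR adjusted p of 0.000195). DOCA lay below control in all 3 genes.

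Gstm1, another glutathione transferase, rose by 1.26 ± 0.38 (SE, edgeR adjusted p of 0.0221), a call lost without control replicate 4 or DOCA replicate 1 (0.0562 and 0.103). Hmox1, heme oxygenase 1, had 7.53 to 18.5 CPM in controls and 34.1, 25.96 and 23.0 CPM in DOCA but was not called (edgeR adjusted p of 0.257), and Sod3 was not called at 0.47 (edgeR adjusted p of 0.00181), though it passed without control replicate 4 or DOCA replicate 3. In the fit of the 7 libraries alone Hmox1 was called.

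The mitochondrial genes Atp5f1a and Ndufb10 were the only 2 of 27 respiratory chain members with a name, and both fell, beside 11.8% of all genes. Of named genes 115 of 1999 fell, and nothing is said of the members without a name. Atp5f1a, a subunit of ATP synthase, had 2734, 2902, 2870 and 3045 CPM in controls and 2070, 2051 and 1789 CPM in DOCA (log2 fold change -0.55 ± 0.10, SE, edgeR adjusted p of 0.000379). Ndufb10, a subunit of complex I, had 125 to 164 CPM in controls and 84.6 to 109 CPM in DOCA (log2 fold change -0.59 ± 0.14, SE, edgeR adjusted p of 0.00305). Atp5f1a missed the size limit without DOCA replicate 3 and Ndufb10 without DOCA replicate 2.

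Ndufb10, Mgst1 and Mt1 stood among the 12 largest falls that had a name, with Imp4, Dnlz, Papss2, Ocel1, Acsl3, Fbxw5, Fmo5, Taf11 and N6amt1. All 12 had log2 fold changes between -0.59 and -0.58, which is where the key ends and not the size of the largest falls. None of these 12, nor Gpx4, Atp5f1a or Ptpro, a podocyte phosphatase (log2 fold change -0.57, edgeR adjusted p of 0.000755), was called with upper quartile scaling, library size alone or TPM. Without 1 library Dnlz (control replicate 1 or DOCA replicate 2), Ocel1 (control replicate 4), Acsl3 (DOCA replicate 2), Fmo5 (control replicate 2 or DOCA replicate 3), N6amt1 (control replicate 2) and Ptpro (DOCA replicate 1) missed the size limit.

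Single named members of other lists rose, namely Asns, an asparagine synthetase induced by amino acid and endoplasmic reticulum stress (log2 fold change 1.08, edgeR adjusted p of 0.00218), Ptger3, a prostaglandin receptor of the loop of Henle (log2 fold change 1.04, edgeR adjusted p of 0.000629), and the fat cell hormone gene Adipoq (log2 fold change 0.88, edgeR adjusted p of 0.00276). Adipoq had 6.53 to 8.11 CPM in controls and 11.9 to 15.4 CPM in DOCA. Not called were the water channel gene Aqp4 (0.63, edgeR adjusted p of 0.132), which passed without control replicate 3, the plasma cell marker Sdc1 (log2 fold change 0.54, edgeR adjusted p of 0.0996), which passed without DOCA replicate 3, and Synpo2 (log2 fold change 0.87, edgeR adjusted p of 0.276), which was called in the fit of the 7 libraries alone (0.0308). The renin-angiotensin, clock, proximal tubule, distal convoluted tubule, intercalated cell, neutrophil and red blood cell lists had 0 named members.

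Among called genes with no overlap and a log2(CPM + 0.5) that averaged 1 or more, the 2 largest rises and the 2 largest falls belonged to IDs without a name. ENSRNOG00000028896 had 1 count in all controls together and 597 in DOCA replicates 1 to 3, a ratio of 609 with a 95% exact interval from 109 to 24095 that covers counting error only. ENSRNOG00000010478 had 0 to 0.976 CPM in controls and 31.0, 28.2 and 15.8 CPM in DOCA. At the other end, ENSRNOG00000052810 had 38.9, 12.5, 28.2 and 4.94 CPM in controls and counts in DOCA replicate 3 only, at 0.775 CPM. ENSRNOG00000032871 had 11.8, 6.08, 9.21 and 4.30 CPM in controls and 0.906, 0.504 and 0.111 CPM in DOCA (log2 fold change -3.92 ± 0.61, SE, edgeR adjusted p of 7.69e-05). In all, 132 IDs had at most 3 counts in each control library and more than 3 in each of DOCA replicates 1 to 3, against 9 the other way round, and 0 of either had a name. The 132 passed the count filter only through DOCA and the 9 only through control. The reverse count required 4 libraries rather than 3, at a floor of 0.418 to 0.478 CPM in control beside 0.332 to 0.378 CPM in DOCA. The 132 and the 9 therefore do not compare like with like.

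DOCA replicate 4 took no part in the test or in the choice of the genes, though it is set against the same controls. Of the 2213 genes that rose, it lay above all 4 controls for 1980 (89.5%), beside 35.8% of all genes tested. Of the 1655 genes that fell, it lay below all 4 controls for 1504 (90.9%), beside 35.8% of all genes. It lay beyond the range of the other DOCA libraries, away from control, for 49.8% of the rises and 53.5% of the falls. On the other side of that range, toward control, it lay for 27.2% of the rises and 23.4% of the falls. Most of these genes thus lay on the same side of control in it.

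The excess depended on the gene group. All 20 named injury members were higher in DOCA replicate 4 than in each of replicates 1 to 3, with a median log2 ratio of 1.01 to their mean. Of all genes that rose, 49.8% were higher in this way. Lcn2 reached 477 CPM, Spp1 20607 CPM, 2.32% of its counts, and Havcr1 548 CPM. Of 32 matrix members 27 were above the other 3 libraries and 0 below, with Col1a1 at 667 CPM. By contrast 18 of 21 cell cycle members were below all of the other 3 and 1 above, with a median log2 ratio of -0.42. Of all genes that rose, 27.2% were below all of the other 3 and 49.8% above. Kif20a was at 5.29 CPM, Top2a at 14.5 CPM and Cdk1 at 10.8 CPM, each still above every control. All 6 sodium transport members were also below the other DOCA libraries, with Pik3r3 at 6.01 CPM, below every control, and Hsd11b2 at 390 CPM, within the control range. Atp5f1a, which fell in DOCA, was lower still at 1121 CPM. With 1 library these differences have no replicate check.

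**Figure D5:**
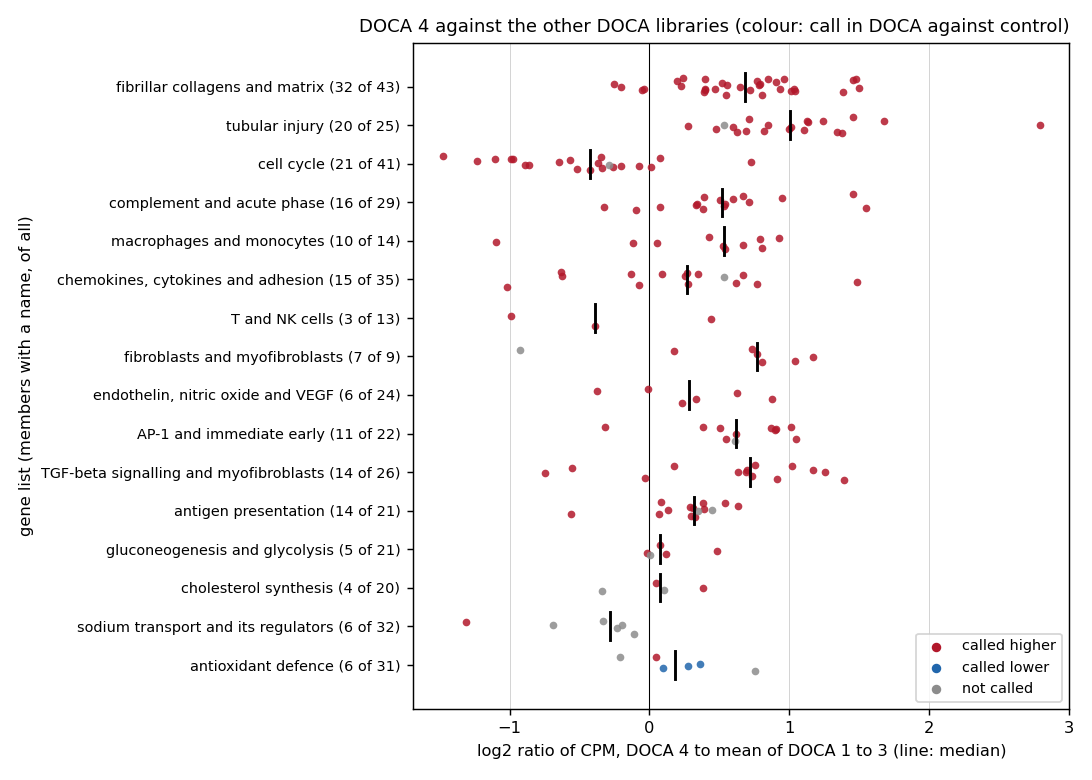
Log2 ratio of CPM in DOCA replicate 4 to the mean of DOCA replicates 1 to 3 (horizontal) for each named member of the lists (vertical), colored by its call in DOCA against control, with the median as a line. Injury (median 1.01) and matrix (0.68) members lie to the right of 0, cell cycle members (-0.42) and sodium transport members (-0.28) to the left.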

How the data were processed

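RNA was polyadenylated per the labels. Per the labels and the study's methods, reads were trimmed with Trim Galore 0.4.5, aligned with STAR 2.7.3a to rat build rn6 and quantified with RSEM. The annotation was not given in the sources used here. The deposited estimated counts were not scaled, and 3.14% were not whole. They were rounded for testing. The deposited TPM values had been adjusted by the authors to gene length and library total.

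Genes were tested with edgeR 4.0.16 (R 4.3.3), with TMM factors and a robust quasi-likelihood fit, in 1 model of 14 libraries. These were the 7 compared and those of the finerenone and spironolactone groups, without DOCA and spironolactone replicate 4. Drug groups lend only their spread. Standard errors are the fold change divided by the root of F. Members, lists and motifs were chosen with earlier results of these data known, and motifs after the promoters had been searched.

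A name was given where TPM of the 7 libraries, at 2 decimals, equaled those of 1 gene in the study's named table and of no other ID (1996 of 1997 rows) or, for 3 more, where the 14 values did. The columns of that table follow the order of the deposited table, not the replicate numbers of the labels. Named genes were the 12 largest rises and falls with a name among called genes whose groups did not overlap and whose log2(CPM + 0.5) averaged 1 or more, 2 IDs without a name in each direction, up to 4 called and 2 not called members of each of 32 lists, and the 10 most abundant genes of each group. The tests were checked on simulated counts. Counts of libraries of a group differed by more than sampling noise (chi-square per gene 6.54 to 42.3). Alternatives covered scaling, filters, tests (DESeq2 1.42.0, limma 3.58.1), libraries and thresholds. A few genes that this rule names are not reported here.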

Additional observations from a re-analysis of the deposited data

Results flagged for a closer look

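In groups of 4 libraries, counting DOCA replicate 4, 62 sets of values were examined for a library far from the other 3, of which chance flags about 1 in 20 (3.1), and 10 were found. In 6 of them DOCA replicate 4 was far above replicates 1 to 3: Spp1 (20607 CPM), Lcn2 (477 CPM), Slc34a2 (460 CPM), Adra1d (113 CPM), ENSRNOG00000010478 (109 CPM) and Tpbg (42.8 CPM). These genes were picked for their rise in the other 3 DOCA libraries.

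The remaining 4 were control replicate 3, with 15438 genes with a count beside 15255 to 15282 in the other controls, DOCA replicate 2 for Fbxw5 (91.6 CPM), control replicate 1 for ENSRNOG00000028896 (0.155 CPM, 1 count) and DOCA replicate 3 for ENSRNOG00000052810 (0.775 CPM).

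DOCA replicate 4 was in no comparison, and 1980 of the 2213 genes called higher lay above all controls in it.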

How the results depend on the processing

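The count of called genes stayed within 1.5 times the 3868 reported except where a log2 fold change of 1 was required (1742) and with limma on log2(TPM + 1) (6047) or log2(TPM + 0.1) (6521). Without 1 control or DOCA library it ranged from 3397 (without DOCA replicate 3) to 3851, and the percent higher from 55.7% to 57.1%. The percent of called genes that were higher moved from 57.2% to 68.7% with the upper quartile, 89.9% with library size alone, 94.7% and 94.9% on the TPM scales and 75.1% where a log2 fold change of 1 was required. With the adjusted p alone it was 49.5% of 5393, which turns the majority. The difference in the share of the 50 most abundant genes was -6.49 percentage points, -5.59 for 20 and -7.50 for 200 genes. Of the 99 named genes and IDs none changed sign in any of the 25 alternatives, and over the 18 that kept all 7 libraries 103 values lost a call, 89 gained it and 1590 kept it.

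Same-numbered control and DOCA libraries did not deviate together (r of -0.02, -0.02 and -0.07), so the numbers do not pair them. With the replicate block 3818 genes were called, 56.3% higher, of which 3568 were called in the same direction without it. With libraries that share the first code number summed, 3593 were called.

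At this depth differences below the floor of 3 counts could not be seen.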
